A study of Mus musculus with 4 samples.

Results

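The 10 genes described here encode the main growth factors that build blood and lymphatic vessels and the receptors that read them. They were chosen by symbol, as Vegfa, Vegfc, Vegfd, Angpt1 and Angpt2 for the 5 ligands and Kdr, Flt1, Flt4, Tek and Tie1 for the 5 receptors, and all 10 were found among the 32285 genes of the count tables. The question asked of them was which cells of the molar tooth organ held the ligands (the sources) and which held the receptors (the receivers), by stage and by jaw.

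The vascular endothelial growth factors act through receptor tyrosine kinases on endothelial cells, the cells that line vessels. Vegfa binds Kdr, which carries most of the signal for sprouting and survival, and Flt1, which binds Vegfa tightly and limits the amount that reaches Kdr. Vegfc and Vegfd bind Flt4 and are best known for the growth of lymphatic vessels. Angpt1, released by the cells around vessels, activates the receptor Tek and keeps vessels stable, Angpt2 mostly opposes it, and Tie1 is a partner of Tek without a firmly established ligand of its own. In the tooth, vessels surround the germ in the dental follicle and grow into the dental papilla as the crown takes shape.

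The study measured single-cell RNA in molar tooth organs of wild-type mice (genotype WTB6 in the labels, with no engineered allele or treatment named for any group) by droplet sequencing of the 3′ ends of transcripts. The 4 libraries came from maxillary and mandibular molars of embryos at E15.5 (written E15 in the labels) and of pups at P1 (the labels' protocol gives P0/P1), with 6 tooth organs pooled per library and muscle-like cells found in every library. There was 1 library per stage and jaw, and stage and jaw were compared by their ratios in each jaw and at each stage, without a test. A difference between libraries cannot be told apart from a difference between these pools. Intervals below cover counting error only.

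After a minimum of 1000 UMIs per barcode (a UMI marks 1 captured RNA molecule), the libraries gave 10073 cells (E15.5 maxillary, median 9596 UMIs), 6911 cells (E15.5 mandibular, 11234), 17040 cells (P1 maxillary, 4019) and 10120 cells (P1 mandibular, 10390). Values below follow this order of libraries unless said otherwise. The P1 libraries shared barcodes, of which 6688 passed the minimum in both, while other pairs of libraries shared 24 to 57. Of the shared barcodes that had a class in both, 98.2% had the same class, and 99.5% of the shared barcodes had more UMIs in the maxillary library (median 12443, against 2964 in the mandibular). They were therefore kept in P1 maxillary and dropped from P1 mandibular, and the P1 maxillary levels of classes were computed again after they were left out and the library was clustered anew. Values without them are given below where a class level in the text moved by over 1.5 times and for the stage calls, and not for single clusters. The shared barcodes made up 41.8% of the P1 maxillary cells, 38.0% of its endothelial-like cells and 96.6% of its papilla-like cells, so without them the papilla-like class was gone from that library.

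The 10 genes took no part in the clustering, done for each library alone, and clusters were named from marker lists that hold none of them. The endothelial-like class held 440, 317, 400 and 305 cells, 4.37%, 4.59%, 2.35% and 3.01% of each library. All 10 endothelial markers (Pecam1, Cdh5, Emcn, Plvap, Cldn5, Esam, Egfl7, Eng, Robo4 and Ecscr) were above 0 in it, and their summed level was 4809, 5105, 5519 and 5195 UMIs per 1000000 UMIs of the class (CPM). Because 3′ counts are not per length, the order of genes within a class is not read as an order of abundance.

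The regions before the start sites are shown for the receptor pairs whose distributions the results turn on, Kdr with Flt1 and Tek with Tie1. Each is the 250 bases before the RefSeq start on GRCm38.p6, 5′ to 3′ on the gene's own strand. Capitals mark the letters searched, on either strand: ACGTG or GCGTG, which form the core of hypoxia response elements, and CCGGAA, or else ACGGAA, or else AGGAAG, which are cores bound by ETS factors, a family with major roles in endothelial genes.
Kdr, chr5:75978456-75978705, minus strand: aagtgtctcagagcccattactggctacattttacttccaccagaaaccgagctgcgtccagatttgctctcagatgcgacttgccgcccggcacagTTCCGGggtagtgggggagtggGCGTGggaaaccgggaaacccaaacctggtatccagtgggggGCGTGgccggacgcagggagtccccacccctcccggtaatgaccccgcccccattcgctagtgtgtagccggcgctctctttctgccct
Flt1, chr5:147726012-147726261, minus strand: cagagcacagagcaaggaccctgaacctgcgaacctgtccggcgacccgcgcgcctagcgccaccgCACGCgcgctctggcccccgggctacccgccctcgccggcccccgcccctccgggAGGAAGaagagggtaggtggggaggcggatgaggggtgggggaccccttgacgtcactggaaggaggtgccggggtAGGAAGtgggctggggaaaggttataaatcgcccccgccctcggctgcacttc
Tek, chr4:94739039-94739288, plus strand: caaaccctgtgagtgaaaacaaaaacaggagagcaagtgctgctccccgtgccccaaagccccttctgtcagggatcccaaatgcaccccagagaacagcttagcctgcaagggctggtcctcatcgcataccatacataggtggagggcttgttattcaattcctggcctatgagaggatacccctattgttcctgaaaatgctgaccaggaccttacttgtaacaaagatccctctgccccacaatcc
Tie1, chr4:118489850-118490099, minus strand: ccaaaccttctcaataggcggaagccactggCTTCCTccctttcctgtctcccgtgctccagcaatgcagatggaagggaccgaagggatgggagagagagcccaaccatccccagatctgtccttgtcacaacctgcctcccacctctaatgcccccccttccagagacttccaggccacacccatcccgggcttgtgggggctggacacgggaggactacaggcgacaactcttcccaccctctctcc
The Kdr window held GCGTG 2 times and CCGGAA 1 time, the Flt1 window GCGTG 1 time and AGGAAG 2 times, and the Tie1 window AGGAAG 1 time. The Tek window held none of these letters. Among the 9 windows of the 8 genes with an entry, hypoxia letters stood in 3 (Kdr, Flt1 and the second of the Vegfa windows, chr17:46025164-46025413) and ETS letters in 3 (Kdr, Flt1 and Tie1). Of all 32851 windows in the table, 38.6% held 1 of the hypoxia motifs (ACGTG 16.6%, GCGTG 28.2%) and 41.1% held 1 of the ETS motifs (CCGGAA 12.03%, ACGGAA 5.28%, AGGAAG 29.5%). By the gene spans of GENCODE M21, which start further upstream for some genes, the second Vegfa window and the Flt4 window lay inside the gene, and the Tie1 and Vegfd windows mostly so. A match is a description of the letters, not a site of binding.

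The receptors were endothelial in every library. Each of the 5 had its highest level in endothelial-like cells in each of the 4 libraries, 20 of 20 combinations. Over all genes with at least 20 CPM in a class in every library, 6.33% were highest in endothelial-like cells in all 4, and 6 of the 9 members that could be tested this way were (the 5 receptors and Vegfc). A level at least 4-fold above every other class in all 4 libraries was found for Kdr, Flt4, Tek and Tie1, against 1.02% of all genes.

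Kdr, the main signalling receptor for Vegfa, stood at 484, 601, 523 and 496 CPM in endothelial-like cells. The next class in each library was 107-, 104-, 73.0- and 43.4-fold lower. A Kdr UMI was found in 81.1%, 80.8%, 86.3% and 84.6% of endothelial-like cells (median 8591, 8966, 6240 and 8244 UMIs), against 0.624%, 0.361%, 0.358% and 0.696% of erythroid-like cells (median 6011, 7391, 1940 and 3039 UMIs), red blood cells that should lack it and show the level of free RNA. After each cell was thinned to 1000 UMIs the endothelial shares were 35.8%, 43.0%, 41.6% and 38.0%. The class held between 65.5% and 92.4% of all Kdr UMIs of a library.

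Flt1, the receptor that binds Vegfa tightly, stood at 789, 814, 1064 and 1055 CPM in endothelial-like cells. Both P1 libraries were above both E15.5 libraries. In P1 maxillary without the shared barcodes it was 888 CPM, still above both E15.5 libraries but below P1 mandibular. The next class was pericyte-like in every library, 5.43-, 2.99-, 8.83- and 28.5-fold lower. These were the smallest distances of the 5 receptors except in P1 mandibular, where Tek stood 9.73-fold above muscle-like cells. The P1 maxillary distance of Flt1 was 4.41-fold without the shared barcodes.

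Flt4, the receptor for Vegfc and Vegfd, stood at 63.5, 59.9, 99.1 and 53.7 CPM. P1 maxillary stood apart, with and without the shared barcodes (99.7 CPM without them), and the other 3 libraries lay between 53.7 and 63.5 CPM. In the other classes Flt4 reached 4.94 CPM at most.

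Tek, the receptor of the angiopoietins, was at 228, 235, 272 and 282 CPM, and its partner Tie1 at 164, 181, 187 and 201 CPM. Between 90.5% and 95.8% of all Tie1 UMIs lay in the endothelial-like cells, the tightest hold of the 5. For Tek the share was 65.5%, 48.9%, 78.4% and 46.3%, and fibroblast-like and muscle-like cells carried the gene too.

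**Figure D1:**
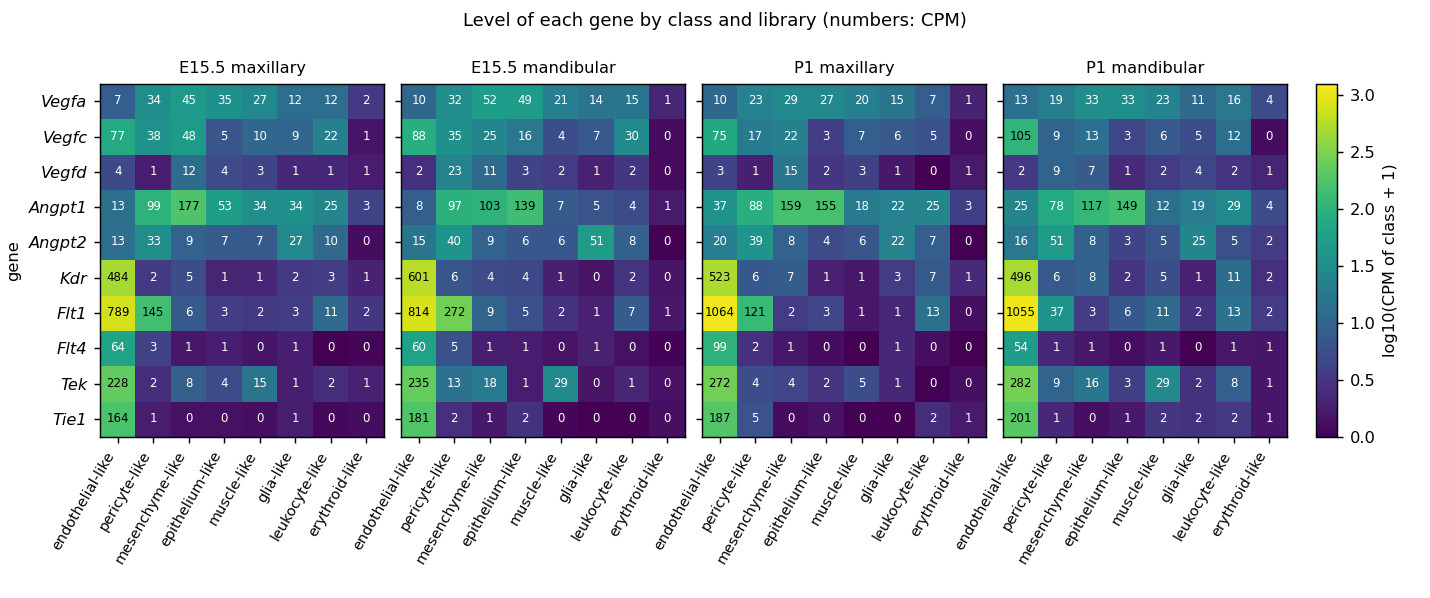
Level of each gene (rows) in 8 classes of cells (columns) in the 4 libraries, as CPM of the class, printed in each tile and coloured on a log10 scale. The 5 receptors peak in endothelial-like cells, Flt1 also reaches 37.0 to 272 CPM in pericyte-like cells, and the ligands other than Vegfc are highest elsewhere.

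**Figure D2:**
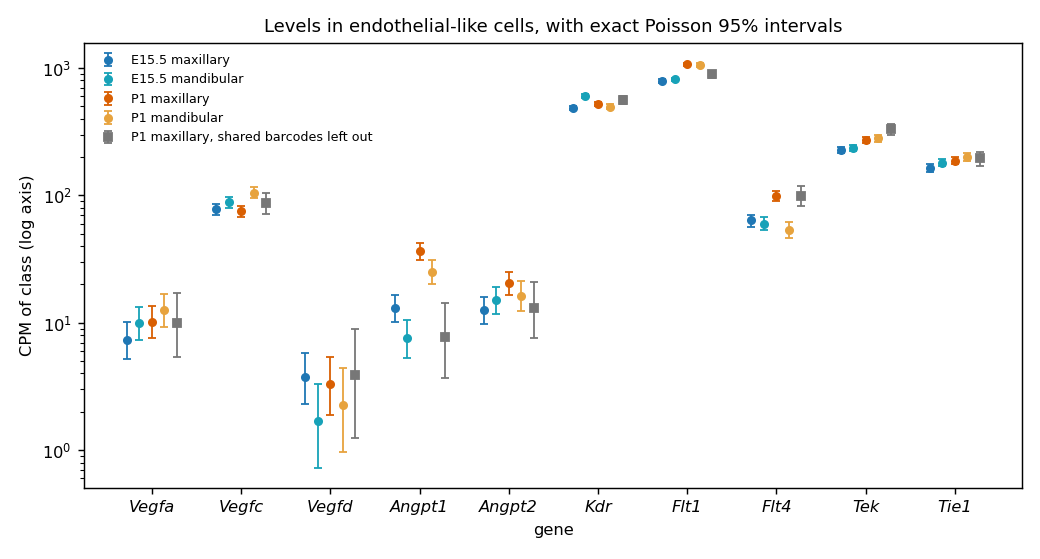
Levels of the 10 genes in endothelial-like cells by library on a log axis, with exact Poisson 95% intervals (points: libraries, squares: P1 maxillary without the shared barcodes). Flt1, Tek and Tie1 are higher at P1 in both jaws, and Angpt1 is at 7.73 CPM in P1 maxillary once the shared barcodes are left out.

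The 1462 endothelial-like cells of the 4 libraries were clustered once more, together, into 16 clusters. Of these, 6 had more than 50% of their cells marked as doublets (2 cells under 1 barcode), and 5 of those 6 had leading genes that are not endothelial, such as Krt17 and Trp63 of epithelium, Amelx and Dspp of tooth-forming cells or Rgs5 and Acta2 of pericytes. A cluster of 120 cells was led by Pf4 and Gp9, genes of platelets, at a median of 1482 UMIs. The values below are levels over the 4 libraries together unless a library is named.

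Vegfc was concentrated in the arterial-like cluster (116 cells, led by Gja5, Bmx and Gja4, connexins and a kinase of arteries). Its level there was 511, 697, 552 and 1027 CPM in the 4 libraries, and 630 CPM together (95% interval 585 to 678). The next highest endothelial cluster was the Rgs5-led one, at 96.7 CPM. With the arterial-like cluster left out, the endothelial-like class held 38.4, 46.2, 47.2 and 69.5 CPM of Vegfc in the 4 libraries, in place of 77.5, 88.5, 75.0 and 105 CPM. Flt1 was also high in the arterial-like cluster, at 1513 CPM, as was Tie1 at 347 CPM, while Flt4 was low at 35.9 CPM.

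Flt4 was concentrated in a cluster of 31 cells led by Ccl21a, Lyve1, Reln and Mmrn1, which are genes of lymphatic endothelium, and in which all 6 lymphatic markers were detected. Since 21 of the 31 were marked as doublets, the cluster was left without a name. Flt4 stood at 535 CPM in it (479 in E15.5 maxillary, 619 in P1 maxillary and 340 in P1 mandibular, with 10, 16 and 5 cells, and no cell from E15.5 mandibular), and at 509 CPM in the 10 cells that were not marked. Flt1 gave 1 UMI there, where Kdr was at 531 CPM, Tie1 at 324 CPM and Tek at 157 CPM. Nrp2, a co-receptor for Vegfc, was at 1283 CPM and Vegfc at 4.13 CPM. With this cluster left out, Flt4 in the endothelial-like class was 49.0, 59.9, 70.7 and 49.2 CPM in the 4 libraries, and P1 maxillary remained the highest of them.

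Tek was highest in a cluster led by Taco1 and haemoglobin genes (619 CPM, 139 cells), a venous-like cluster led by Tll1 and Vwf (552 CPM, 132 cells) and a cluster led by Slc28a2 and Ablim3 (550 CPM, 72 cells, 47 of them from P1 mandibular). The last of these also had genes of skeletal muscle among its leading genes (Acta1, Myl1, Ckm, Myoz2 and Tnnt3). In the Tll1-led cluster Tek ran from 494 to 612 CPM over the 4 libraries, so that all 4 lay above the level of the whole class. A second venous-like cluster, led by Sele and Selp (45 cells), stood lower, with Tek at 284 CPM and Angpt2 at 3.95 CPM. The Tll1-led cluster held Angpt2 at 53.8 CPM, the highest level of that ligand in any endothelial cluster, of which P1 maxillary gave 112 CPM and the other libraries 21.7 to 32.8 CPM. Kdr was highest in the Slc28a2-led cluster, at 1073 CPM, and Flt1 in the Taco1-led one, at 2029 CPM.

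**Figure D3:**
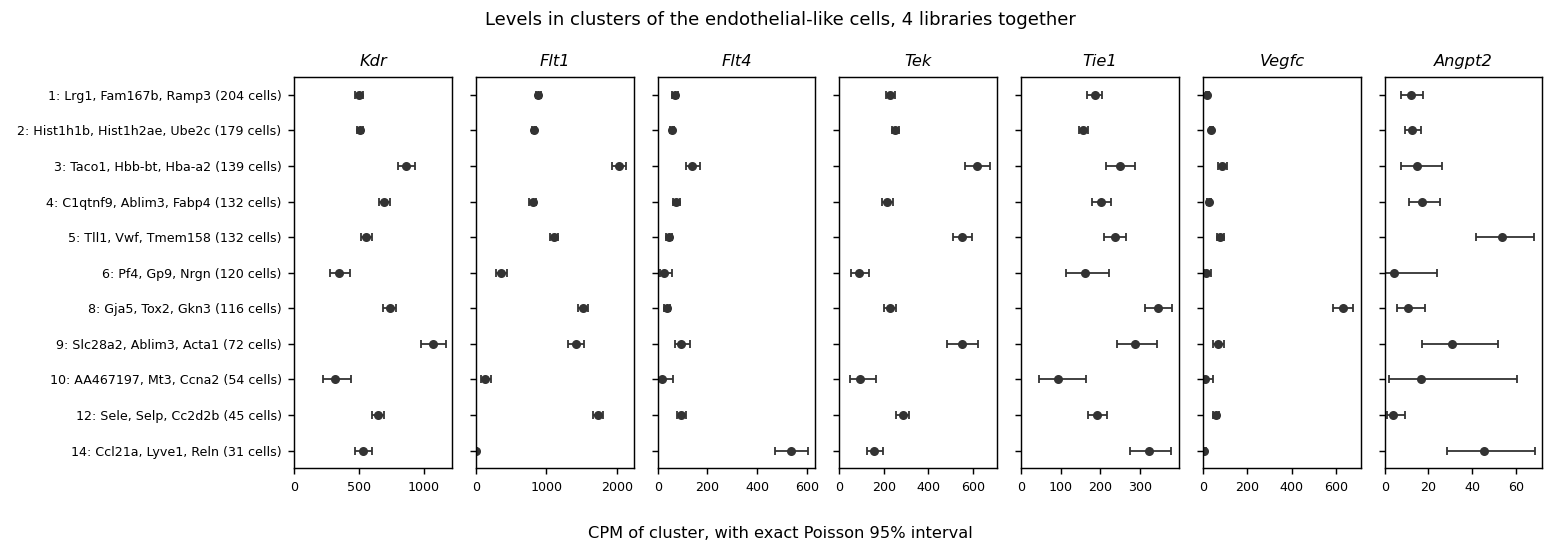
Levels of 7 genes in clusters of the endothelial-like cells of the 4 libraries together (CPM of the cluster, exact Poisson 95% intervals, linear axes from 0), without 5 clusters that were mostly marked as doublets. Vegfc peaks in the Gja5-led cluster (630 CPM), and Flt4 in the Ccl21a-led one (535 CPM), where Flt1 is near 0.

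Outside the endothelium the receptors came apart. Pericyte-like cells (132, 83, 230 and 90 cells, contractile cells on the outside of small vessels) held Flt1 at 145, 272, 121 and 37.0 CPM, with Kdr at only 2.35, 5.76, 6.07 and 6.39 CPM. The ratio of Flt1 to Kdr UMIs was 61.7, 47.3, 19.9 and 5.80 in these cells, against 1.63, 1.35, 2.04 and 2.13 in endothelial-like cells. The intervals of the ratios were apart in the first 3 libraries and overlapped in P1 mandibular (2.22 to 19.2 against 2.01 to 2.25). An excess of Flt1 was not particular to pericyte-like cells: the Hpse2-led and Alx1-led mesenchymal cluster of E15.5 maxillary gave 129 Flt1 UMIs against 7 of Kdr (30.0 CPM of Flt1), and an Enpp2-led epithelial cluster of P1 mandibular 46 against 4 (8.80 CPM). In pericyte-like cells the endothelial markers summed to 213, 147, 259 and 239 CPM. Esam, which pericytes also carry, was the most abundant, and 2, 1, 0 and 2 of the 10 markers were at 0. Without the shared barcodes the P1 maxillary level of Flt1 was 201 CPM. The count of Flt1 UMIs was 185, 331, 139 and 29, so P1 mandibular rests on few. Neutrophil-like cells, found in 3 libraries, held Flt1 at 45.2, 28.3 and 29.8 CPM (E15.5 maxillary, E15.5 mandibular and P1 mandibular), and 39.9, 31.3 and 5.68 CPM without the cells marked as doublets. Because the reads come from the 3′ end, these counts do not separate the membrane-bound from the soluble form of Flt1.

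Kdr without Flt1 was found in unnamed and some papilla-like clusters at P1. In P1 mandibular, an unnamed cluster led by Stbd1, Grm8, Fabp7 and Csmd1 (541 cells, with Alpl, a phosphatase of mineralising and enamel-organ cells, and Enpp6 among its leading genes) held Kdr at 36.4 CPM, with 291 Kdr UMIs against 15 of Flt1, and a Kdr UMI in 35.9% of cells. A P1 maxillary cluster with many of the same leading genes (490 cells, led by Csmd1, Stbd1, Grm8, Scin and Alpl) held 29.4 CPM, with 210 UMIs against 10 and a UMI in 32.7% of cells. These shares lie above the 0.358% and 0.696% of erythroid-like cells, but the depths differ. The P1 maxillary Csmd1-led cluster had a median of 13779 UMIs, and the erythroid-like clusters of that library 2205 and 1613. By level, those erythroid-like clusters held Kdr at 1.01 and 2.17 CPM, against 29.4 CPM. In P1 mandibular a papilla-like cluster led by Grik1 held 229 Kdr UMIs against 12 of Flt1 (29.2 CPM of Kdr). The Grik1-led one of P1 maxillary gave 187 against 17 (12.6 CPM), with shared barcodes in 98.7% of its cells. The other papilla-like clusters of P1 maxillary held less Kdr, at 8.44 CPM (Smpd3-led), 7.34 CPM (Hist1h1b-led), 2.73 CPM (Pappa-led) and 1.97 CPM (Dab1-led). The Dab1-led one had 6 Kdr UMIs against 9 of Flt1.

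Tendon-like cells held Kdr at 16.96 and 24.8 CPM at E15.5 (maxillary 16 Kdr UMIs against 0 of Flt1, mandibular 59 against 2) and gave 40 against 4 in P1 mandibular. The 3 P1 maxillary clusters that scored as tendon went the other way, with 6 Kdr UMIs against 23 of Flt1. They had neither Tnmd nor Scx among their leading genes (the first of these were Pdzrn4, Pappa2 and Cdh20). The name was withdrawn for them after these levels were seen. By score alone, tendon-like cells thus did not hold more Kdr than Flt1 in every library. An E15.5 maxillary mesenchyme-like cluster led by Nrg1 and Slc25a21 held 21.1 CPM (69 against 4). Leaving out barcodes marked as doublets or high in mitochondrial RNA left similar levels of Kdr in clusters named above. They were 22.6 CPM (Nrg1-led), 25.3 CPM (mandibular tendon-like), 29.3 CPM (P1 maxillary Csmd1-led), 29.7 CPM (P1 mandibular Grik1-led) and 36.7 CPM (Stbd1-led). An exception was the E15.5 maxillary papilla-like cluster, whose 21.8 CPM became 1.64 CPM, so nearly all of its Kdr lay in the barcodes left out. In the P1 maxillary Csmd1-led cluster 99.0% of the cells carried shared barcodes, and once these were left out the unnamed cells of that library held Kdr at 1.76 CPM.

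Tek without Tie1 was found in fibroblast-like and muscle-like cells. Fibroblast-like cells held Tek at 24.0, 46.2, 26.9 and 52.8 CPM, and Tie1 under 1 CPM in each library. The P1 maxillary level of Tek there was 17.7 CPM without the shared barcodes. The level came from clusters led by Mfap5, Clec3b or Dpt, genes of loose connective tissue, with 265 Tek UMIs against 1 of Tie1 (E15.5 maxillary, 48.1 CPM), 577 against 4 (E15.5 mandibular, 66.5 CPM), 186 against 2 (P1 maxillary, 26.9 CPM) and 760 against 2 (P1 mandibular, 93.0 CPM). Muscle-like cells held Tek at 14.8, 28.7, 4.55 and 28.9 CPM, of which P1 maxillary rests on 8 UMIs (9.08 CPM on 5 UMIs without the shared barcodes). There the highest cluster was one led by Msc and Pax7, genes of muscle progenitors, in E15.5 mandibular (48.4 CPM, 244 UMIs against 1). In endothelial-like cells the ratio of Tek to Tie1 was between 1.30 and 1.45 in every library, where the Mfap5-led clusters had at least 93 Tek UMIs for each Tie1 UMI.

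**Figure D4:**
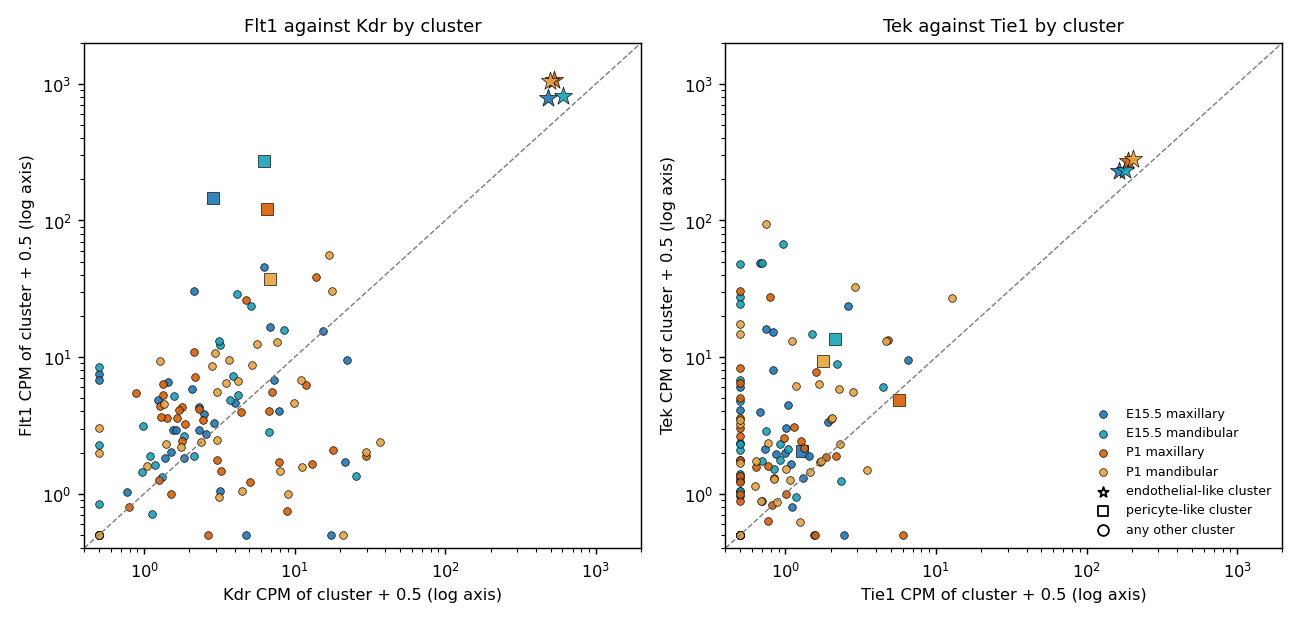
Flt1 against Kdr (left) and Tek against Tie1 (right) in every cluster of the 4 libraries, each as CPM of the cluster plus 0.5 on log axes, with the line of equal values dashed. Endothelial-like clusters (stars) sit at the top right, pericyte-like clusters (squares) have Flt1 above Kdr, and several other clusters (circles) reach 20 to 40 CPM of Kdr or 20 to 93 CPM of Tek without the partner.

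The ligands were mostly highest outside the endothelium. In 16 of the 20 combinations of ligand and library the highest level lay in another class, and the 4 exceptions were all Vegfc. Vegfa, Angpt1 and Angpt2, 3 of the 9 members that could be tested, were highest outside endothelial-like cells in all 4 libraries, where 78.8% of all genes were. Most genes were thus highest outside this class, and neither count is read as a result about the ligands. A share over all genes for single combinations is not given here.

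Vegfa, the ligand of Kdr and Flt1, was spread over mesenchyme and epithelium. Mesenchyme-like cells held it at 44.9, 51.8, 28.6 and 33.4 CPM and epithelium-like cells at 35.4, 49.2, 26.8 and 33.4 CPM, while endothelial-like cells held only 7.35, 9.95, 10.2 and 12.7 CPM. These tissues did not differ beyond counting error in E15.5 mandibular (log2 ratio 0.08, 95% interval -0.18 to 0.34) and P1 mandibular (0.00, -0.12 to 0.12). Olfactory-like cells, found only in P1 maxillary (502 cells), were higher still at 69.6 CPM. Ameloblast-like cells, which lay down enamel, were among the lowest at 8.90 and 11.3 CPM in the P1 libraries, near the endothelial level and above the 1.03 and 4.35 CPM of erythroid-like cells. Odontoblast/osteoblast-like cells stood at 22.1 and 24.9 CPM. Among clusters, the highest was an E15.5 mandibular mesenchyme-like cluster led by Grm8, Adarb2 and Rbp4 (76.8 CPM, 682 cells).

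Vegfc, the ligand of Flt4, was highest in endothelial-like cells among the main classes (values above) but most of its UMIs lay in mesenchyme, 75.3%, 60.7%, 71.7% and 54.6% of each library (2814, 1120, 1544 and 731 UMIs, against 411, 418, 361 and 374 UMIs in the endothelium, a much smaller class). Its mesenchymal level was 48.4, 24.6, 21.5 and 12.6 CPM, higher in the maxillary library at both stages. The P1 maxillary level was 54.4 CPM once the shared barcodes were left out. Among the finer classes it was 56.2, 32.2 and 55.4 CPM in follicle-like cells, the sac around the tooth germ (both E15.5 libraries, then P1 mandibular). Papilla-like cells held only 6.40, 4.82 and 4.37 CPM (E15.5 maxillary and both P1 libraries), and odontoblast/osteoblast-like and ameloblast-like cells were at 1.51 CPM or less in the P1 libraries. Among these finer classes the endothelium was not always first: 51 osteoclast-like cells of E15.5 maxillary held 95.8 CPM (104 UMIs), and the Pdzrn4-, Pappa2- or Cdh20-led clusters of P1 maxillary, at 74.5 CPM, stood level with the endothelium.

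Vegfd, the other ligand of Flt4, stood in mesenchyme-like cells at 11.6, 10.8, 15.4 and 6.82 CPM, and in the mandibular libraries in pericyte-like cells at 23.0 and 8.94 CPM (28 and 7 UMIs). The log2 ratio of pericyte-like over mesenchyme-like cells was 1.09 (0.48 to 1.64) in E15.5 mandibular and 0.39 (-0.93 to 1.45) in P1 mandibular, where the interval included 0. The P1 maxillary level in mesenchyme-like cells was 9.11 CPM without the shared barcodes. Single maxillary clusters stood far above these levels. A P1 maxillary cluster led by Dab1, Tfap2b and Plpp4 (278 cells) held 123 CPM, 374 of the 1106 mesenchymal UMIs of that library, with a UMI in 46.0% of its cells. In E15.5 maxillary the papilla-like cluster led by Rspo2 and Dlx6os1 (79 cells) held 79.4 CPM. As given above, nearly all Kdr of this second cluster lay in barcodes marked as doublets or high in mitochondrial RNA. Its endothelial markers summed to 118 CPM. Its levels of Vegfd, Vegfc and Angpt1 are given with those barcodes only. Of the cells of the first cluster 94.96% carried shared barcodes. The next highest level in a cluster of a single library was 23.1 CPM. Vegfd was too low to be tested with the other 9 genes (no class reached 20 CPM in every library).

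Angpt1, the activating ligand of Tek, was found in both mesenchyme and parts of the epithelium. Mesenchyme-like cells held 177, 103, 159 and 117 CPM and epithelium-like cells 53.2, 139, 155 and 149 CPM (92.5 CPM in P1 maxillary without the shared barcodes). Pericyte-like cells, a known source, were at 98.9, 97.1, 87.6 and 77.9 CPM. In 3 libraries the highest mesenchymal cluster had Alx1 among its leading genes, with Pax3 or Hpse2, at 523 CPM in E15.5 maxillary (383 cells), 384 CPM in P1 maxillary (1365 cells) and 338 CPM in P1 mandibular (116 cells). In E15.5 mandibular the highest was a Ppfia2-led cluster (209 CPM, 240 cells), and a Hpse2-led cluster without Alx1 or Pax3 among its leading genes was the lowest (23.2 CPM, 256 cells). The epithelial level at P1 came from clusters led by Odam, Mindy4 and Pi15, at 389 CPM in P1 maxillary (641 cells, 85.0% with shared barcodes) and 378 CPM in P1 mandibular (458 cells). Ameloblast-like cells held 13.1 and 12.6 CPM and odontoblast/osteoblast-like cells 10.8 and 11.8 CPM. Both classes were far below the levels over all epithelium-like and mesenchyme-like cells. In P1 maxillary 95.7% of either class carried shared barcodes, so neither class has a usable level there without them: the cluster that then scored as ameloblast had 416 cells, more than the 253 before, held 190 CPM of Angpt1, and is not read as that class. Among epithelial clusters of P1 mandibular the lowest stood at 10.6 CPM and the median one at 30.6 CPM. A low level was thus not particular to ameloblast-like cells. Papilla-like cells were at 324, 148 and 135 CPM (E15.5 maxillary and both P1 libraries).

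Angpt2, which mostly opposes Angpt1 at Tek, was highest in pericyte-like cells (32.96, 39.5, 39.0 and 51.1 CPM) and glia-like cells (27.3, 50.8, 22.4 and 25.3 CPM). These 2 classes did not differ beyond counting error at E15.5 (log2 ratio of pericyte over glia 0.27, -0.32 to 0.85, maxillary, and of glia over pericyte 0.36, -0.14 to 0.88, mandibular), and pericyte-like cells were higher in both P1 libraries (0.80, 0.13 to 1.481, and 1.01, 0.28 to 1.76). In P1 maxillary without the shared barcodes the interval included 0 (0.74, -0.19 to 1.65). Among the classes, endothelial-like cells came next at 12.6, 15.03, 20.4 and 16.3 CPM, and at 13.1 CPM in P1 maxillary without the shared barcodes. A single P1 mandibular mesenchyme-like cluster, led by Hpse2 and Sfrp2, stood at 44.1 CPM, above the glia-like cells of that library. The median mesenchyme-like cluster there was at 6.63 CPM. The Angpt2 gene lies at chr8:18690263-18741562 (GRCm38, minus strand), inside Mcph1 on the opposite strand.

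**Figure D5:**
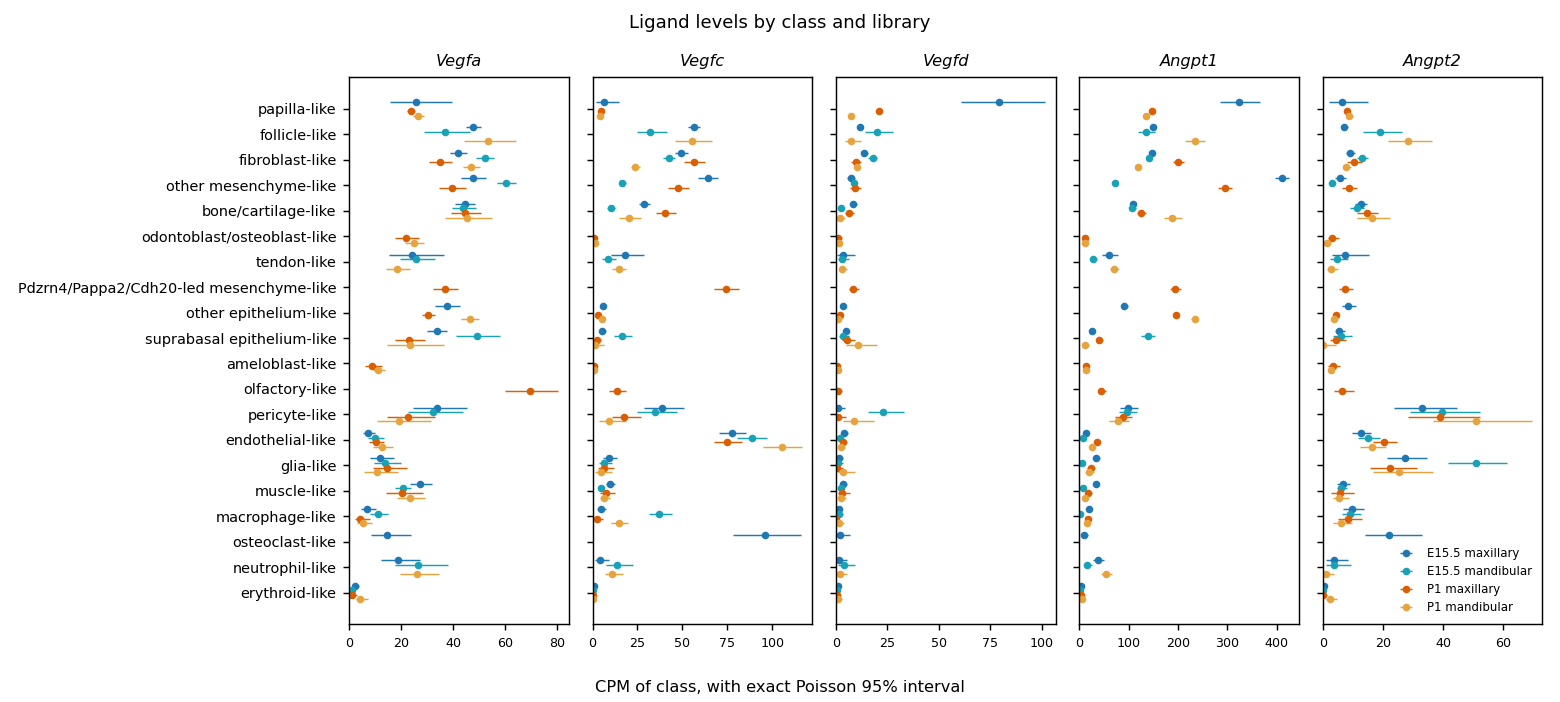
Levels of the 5 ligands by class and library (CPM of the class, exact Poisson 95% intervals, linear axes from 0 with their own scales). Vegfa is spread over many classes, Vegfc is highest in endothelial-like cells in 3 libraries (in P1 maxillary 75.0 CPM, against 74.5 CPM in the Pdzrn4-, Pappa2- or Cdh20-led clusters) and in osteoclast-like cells in E15.5 maxillary (95.8 CPM against 77.5 CPM), Vegfd in the E15.5 maxillary papilla-like cells, Angpt1 is high in mesenchyme and epithelium but low in ameloblast-like and odontoblast/osteoblast-like cells, and Angpt2 is highest in pericyte-like and glia-like cells.

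Between E15.5 and P1 the receptors differed by less than 2-fold in endothelial-like cells. The log2 ratio of P1 over E15.5 for Flt1 was 0.43 (0.37 to 0.49) in the maxillary and 0.37 (0.31 to 0.44) in the mandibular molar, for Tek 0.25 (0.14 to 0.37) and 0.26 (0.14 to 0.39), and for Tie1 0.20 (0.06 to 0.33) and 0.16 (0.01 to 0.30). All 3 were thus higher at P1 in both jaws beyond counting error, and none by 1.5-fold. The class was made of different shares of clusters in the libraries. The Slc28a2-led cluster (Flt1 at 1413 CPM) held 9, 14, 2 and 47 of its cells, and the Pf4-led one (Flt1 at 356 CPM) 38, 51, 16 and 15. Their part in the differences between libraries was not tested. Without the shared barcodes the maxillary ratios were 0.17 (0.08 to 0.27) for Flt1, 0.53 (0.37 to 0.69) for Tek and 0.25 (0.04 to 0.45) for Tie1, in the same direction as with them. Kdr went in opposite directions, 0.11 (0.03 to 0.19) in the maxillary and -0.28 (-0.36 to -0.19) in the mandibular molar. Flt4 was 0.64 (0.44 to 0.85) and -0.16 (-0.43 to 0.11). The median over the members tested was 0.34 in the maxillary (8 members) and 0.25 in the mandibular molar (7 members), where over all genes tested it was 0.03 and 0.04. Angpt1 in both jaws and Angpt2 in the maxillary molar reached 20 CPM only at P1. They entered the medians through the stage where they were high, so the medians are not read as a shift of the members.

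A difference of at least 2-fold in the same direction in both jaws was seen for 1 of the 7 members tested in endothelial-like cells. Of all genes tested 1.07% were higher and 0.328% lower at P1 by this rule. With the shared barcodes left out no member passed, and the shares over all genes were 0.158% and 0.130%. The member was Angpt1, with 13.0 and 7.62 CPM in the embryonic libraries, then 36.6 and 25.04 CPM (log2 ratio 1.49, 1.08 to 1.91, and 1.72, 1.14 to 2.32). It reached 20 CPM only at P1 and so entered through the stage where it was high, and the call is a description only. Without the shared barcodes the P1 maxillary level was 7.73 CPM and the ratio -0.75 (-1.87 to 0.21). Angpt1 in this class was high only in clusters mostly marked as doublets, with leading genes that are not endothelial. It was 306 CPM in the Trp63-led and Krt17-led cluster (16 of 16 cells marked), 47.5 CPM in the Nrg1-led cluster (103 of 116), 44.1 CPM in the Amelx-led cluster (40 of 43) and 219 CPM in a cluster of 14 cells (12 marked), and at most 6.52 CPM in the 11 clusters outside the 5. With the 5 such clusters left out, it was 1.476, 0.855, 2.77 and 3.05 CPM in the 4 libraries (6, 3, 10 and 6 UMIs), where erythroid-like cells held 3.37, 0.658, 2.75 and 4.35 CPM.

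In mesenchyme-like cells 3 members could be tested (Vegfa, Vegfc and Angpt1) and none passed 2-fold in both jaws, where 4.10% of all genes were higher and 1.20% lower at P1 (0.282% and 0.0988% without the shared barcodes). Here too the class was made of different clusters at the stages: papilla-like cells numbered 79 in E15.5 maxillary, with none named in E15.5 mandibular, and 3315 and 1946 in the P1 libraries. Their part in the mesenchymal differences between stages was not tested. Vegfa was lower at P1 in both, with a log2 ratio of -0.65 (-0.73 to -0.56) in the maxillary and -0.63 (-0.72 to -0.55) in the mandibular molar. Without the shared barcodes the maxillary ratio was -0.22 (-0.36 to -0.08). Vegfc was lower by more, -1.17 (-1.26 to -1.08) and -0.96 (-1.10 to -0.83), and this turned to 0.17 (0.05 to 0.29) in the maxillary molar without them. Angpt1 was lower in the maxillary (-0.16, -0.20 to -0.12) and higher in the mandibular molar (0.18, 0.13 to 0.24), and the maxillary ratio turned to 0.41 (0.35 to 0.47) without the shared barcodes. As 96.6% of the P1 maxillary papilla-like cells carried shared barcodes and papilla-like cells were low in Vegfc, the set of mesenchymal cells compared was different with and without them.

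In epithelium-like cells 2 members could be tested (Vegfa and Angpt1) and none passed 2-fold in both jaws, against 5.29% of all genes higher and 3.08% lower (1.82% and 0.630% without the shared barcodes). The class was made of different clusters at the stages: E15.5 mandibular held 1 Krt13-led suprabasal cluster, and P1 mandibular 8 clusters, led by Amelx, Odam and Mindy4, Vwde and others. Vegfa was lower at P1, -0.40 (-0.57 to -0.24) and -0.56 (-0.82 to -0.29), and the maxillary ratio was 0.00 (-0.35 to 0.34) without the shared barcodes. Angpt1 was higher in the maxillary molar only, 1.54 (1.43 to 1.65), against 0.10 (-0.05 to 0.26) in the mandibular, whose E15.5 epithelium rests on 143 cells. Without the shared barcodes the maxillary ratio was 0.80 (0.58 to 1.01).

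In pericyte-like cells 5 members could be tested and 1, Vegfc, was lower past 2-fold in both jaws (0.534% of all genes lower, 1.84% higher), from 38.5 and 34.6 CPM to 17.4 and 8.94 CPM. Vegfc reached 20 CPM in these cells only at E15.5, so it entered through the stage where it was high, and the call is a description only. The P1 counts behind it are 20 and 7 UMIs, and without the shared barcodes the maxillary ratio was -0.78 (-1.87 to 0.18). The log2 ratio of Flt1 in these cells was -0.27 (-0.60 to 0.06) in the maxillary and -2.88 (-3.48 to -2.33) in the mandibular. The maxillary ratio turned to 0.47 (0.11 to 0.83) without the shared barcodes.

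Between the jaws, no member passed 2-fold at both stages in endothelial-like cells, of 6 that could be tested, where 0.147% of all genes were higher and 0.323% lower in the maxillary molar. Among these 6 the widest difference at a single stage was that of Flt4 at P1, with a log2 ratio of maxillary over mandibular of 0.88 (0.64 to 1.13), against 0.08 (-0.15 to 0.32) at E15.5. Kdr was lower in the maxillary molar at E15.5 (-0.31, -0.39 to -0.24) and close at P1 (0.07, -0.01 to 0.16). Vegfc was lower in the maxillary molar at P1 (-0.49, -0.70 to -0.28), and with the shared barcodes left out the interval included 0 (-0.27, -0.59 to 0.04). For Flt1, Tek and Tie1 the ratios lay between -0.14 and 0.01 at both stages. With the shared barcodes left out they were -0.25 (-0.35 to -0.15) for Flt1 and 0.23 (0.06 to 0.39) for Tek at P1.

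The pathway genes around these members were followed in fixed lists. Of 13 partners, 12 could be tested and 2 were highest in endothelial-like cells in all 4 libraries, against 6.33% of all genes: Nrp1, the co-receptor for Vegfa (451, 542, 487 and 596 CPM), and Ptprb, a phosphatase that damps Tek signalling (310, 384, 381 and 499 CPM). Nrp2 missed this only in P1 maxillary, where neuron-like cells were higher (480 CPM against 277, and 460 against 426 without the shared barcodes). The other ligands of Flt1 had sources of their own: Vegfb was highest in muscle-like cells (81.5, 82.2, 58.1 and 56.9 CPM) and Pgf, placental growth factor, in pericyte-like cells (24.3, 22.2, 43.4 and 62.6 CPM). Adamts3, a protease that activates Vegfc, was highest in mesenchyme-like cells (21.6, 23.2, 47.2 and 59.1 CPM) and was past 2-fold higher there at P1 in both jaws, as was the guidance factor Sema3e (40.1 and 7.30 CPM in the embryonic, 130 and 47.0 CPM in the P1 libraries). These were 2 of the 10 partners tested in mesenchyme, against 4.10% of all genes, and none was lower, against 1.20%. With the shared barcodes left out of P1 maxillary, Adamts3 was 33.8 CPM and no longer passed, and Sema3e was 89.96 CPM and did. Both compare mesenchyme-like classes with few papilla-like cells at E15.5 and many at P1, as given above. In the mandibular molar Sema3e reached 20 CPM only at P1, the stage where it was high. No partner differed by 2-fold between the stages in the same direction in both jaws in endothelial-like cells (5 tested), epithelium-like cells (8) or pericyte-like cells (6).

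Of the 10 tip and response genes, 9 could be tested and 7 were highest in endothelial-like cells in all 4 libraries, against 6.33% of all genes (Esm1, Apln, Aplnr, Dll4, Pdgfb, Kcne3 and Rasip1). These genes mark sprouting endothelium or respond to Vegfa, and in endothelial-like cells none of the 8 tested passed 2-fold between the stages in both jaws. Unc5b, a netrin receptor and the 1 gene of this list tested there, was higher at P1 in epithelium-like cells (9.52 and 37.0 CPM, then 86.1 and 102 CPM, or 42.7 CPM in P1 maxillary without the shared barcodes) against 5.29% of all genes. It was also higher in mesenchyme-like cells (11.9 and 12.4 CPM, then 76.4 and 71.3 CPM), as was Tgfb1, 1 of the 5 mural partners tested (13.6 and 13.7 CPM, then 61.2 and 61.5 CPM), against 4.10% of all genes. Neither mesenchymal call was left without the shared barcodes (10.3 and 14.9 CPM in P1 maxillary). Both genes reached 20 CPM in mesenchyme-like cells only at P1, as did Unc5b in maxillary epithelium-like cells, so they entered through the stage where they were high. Esm1, a gene of tip cells at the front of sprouts, was at 24.7, 26.7, 31.2 and 40.2 CPM, and at 15.45 CPM in P1 maxillary without the shared barcodes. Of 6 mural partners, all of them tested, S1pr1 was highest in the endothelium in all 4 libraries (6.33% of all genes) and 5 were highest outside it in all 4 (78.8% of all genes), among them Pdgfrb, Jag1 and Notch3, the last of which is also a marker that named the pericyte-like class. Notch3, 1 of the 4 tested, was past 2-fold higher at P1 in endothelial-like cells, against 1.07% of all genes (7.35 and 23.3 CPM against 31.4 and 52.6 CPM), though not once the shared barcodes were left out (10.8 CPM in P1 maxillary). In the maxillary molar Notch3 reached 20 CPM in endothelial-like cells only at P1, the stage where it was high. The Rgs5-led endothelial cluster, where 40 of 49 cells were marked as doublets, is one of the clusters that hold Notch3. Its part in that difference was not tested.

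Vegfa is also known as a gene that low oxygen switches on, so the oxygen-regulated genes were set beside it. Of 11, 8 could be tested across classes, none was highest in the endothelium in all 4 libraries, and 5 were highest outside it in all 4 (Ldha, Pgk1, Bnip3, Ndrg1 and Pdk1). Over all genes these shares were 6.33% and 78.8%, so the counts are not a result about the list. In epithelium-like cells 3 of the 9 tested were past 2-fold lower at P1 in both jaws, against 3.08% of all genes: Slc2a1, a glucose transporter (143 and 127 CPM, then 39.4 and 31.6 CPM), Ldha (596 and 732 CPM, then 273 and 209 CPM) and Egln3 (24.1 and 25.7 CPM, then 5.24 and 2.72 CPM). None of the 3 passed with the shared barcodes left out, when P1 maxillary held Slc2a1 at 117 CPM, Ldha at 582 CPM and Egln3 at 36.8 CPM. Epas1, the oxygen-sensing factor of endothelium, was the 1 of the 9 that was higher there at P1, against 5.29% of all genes (6.77 and 11.4 CPM, then 28.9 and 33.5 CPM), also without the shared barcodes (62.9 CPM in P1 maxillary). In endothelial-like cells Ankrd37 was the 1 gene of the 7 tested past 2-fold, lower at P1, against 0.328% of all genes (29.6 and 24.3 CPM, then 10.8 and 5.91 CPM), and in mesenchyme-like cells Slc2a1 was the 1 of 7, also lower, against 1.20% of all genes (31.2 and 24.7 CPM, then 14.9 and 10.0 CPM). Neither passed without the shared barcodes, when P1 maxillary held Ankrd37 at 23.9 CPM and Slc2a1 at 25.4 CPM. Egln3 in epithelium-like, Ankrd37 in endothelial-like and Slc2a1 in mesenchyme-like cells reached 20 CPM only at E15.5. Epas1 in epithelium-like cells did so only at P1. These genes thus entered through the stage where they were high.

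The likeness of levels was taken over 66 combinations of class and library (Pearson r of log2(CPM + 1), among 5341 genes). Of the receptors, Tie1 was most like Robo4 (0.95), Flt4 like Robo4 (0.90), Kdr like Sox18 (0.88), Flt1 like Esam (0.85) and Tek like Enpp3 (0.82). Robo4 and Esam are among the markers that named the endothelial-like class. Of the ligands, Angpt1 was most like Ror2 (0.93), Vegfa like Kat6b (0.84), Angpt2 like Gnb4 (0.78), Vegfc like Tfpi (0.77) and Vegfd like Osr2 (0.69). The points share libraries and classes, so these values describe the table and carry no p.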

How the data were processed

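The deposited matrices held UMI counts per gene and barcode, not normalized. Per the labels and the study's methods, the authors made libraries with a droplet 3′ kit and aligned and counted reads with Cell Ranger on mm10, using the annotation that comes with it. The libraries were indexed per sample, pooled for sequencing and counted per sample. Why the P1 libraries share barcodes was not tested.

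Barcodes with at least 1000 UMIs were used, and P1 mandibular barcodes also found in P1 maxillary were dropped. Each library was clustered in scanpy 1.11.5 (counts scaled to 10000 per cell, log-transformed, 2000 highly variable genes, 40 principal components, 15 neighbours, leidenalg 0.10.2 at resolution 1.0, seed 0), without the 10 genes and the 40 pathway genes unless these are markers. A cluster was named where its marker score was at least 0.5 (0.55 for finer classes) and 0.1 above the next (within 0.1, the class with more markers among the 10 leading genes), with at least 3 markers found in 10% or more of its cells. These limits were set after the clusters were seen, and a list for stellate reticulum and stratum intermedium was then dropped. A cluster whose leading 10 genes went against its name, or with over 50% of its cells marked as doublets, stayed unnamed. The finer name tendon was withdrawn for 3 P1 maxillary clusters after their levels were seen. Doublets were marked with Scrublet (0.8% per 1000 barcodes) and kept.

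UMIs were summed per class and library and divided by the class total (CPM), with exact Poisson 95% intervals. Ratios carry exact binomial 95% intervals and shares of cells exact Clopper-Pearson ones. A gene entered a comparison across classes or between libraries at 20 CPM or more in the higher class or library. It could thus enter through the stage where it was high, as could all genes counted beside it. A difference was called at 2-fold in both jaws or at both stages. Total counts per library were 109723360, 86659227, 128812956 and 139873101 UMIs. Python 3.11.15, numpy 2.4.6, scipy 1.17.1, pandas 2.3.3 and matplotlib 3.10.9 were used, and the counting steps were tested on simulated counts. Named are the 10 genes, 40 genes of 4 fixed pathway lists and, for likeness, the genes with the highest Pearson r of log2(CPM + 1), with a pseudocount of 1, among genes with at least 50 CPM. Members and lists were chosen with earlier results of these data known. Gene positions are from GENCODE M21 on GRCm38 and upstream sequences from RefSeq on GRCm38.p6. Angpt1 and Angpt2 were not matched in the table of upstream sequences used here.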

Additional observations from a re-analysis of the deposited data

Results flagged for a closer look

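The log2 ratio of P1 over E15.5 had opposite signs in the jaws for 9 combinations of member and class (endothelial-, pericyte-, mesenchyme- and epithelium-like cells), and in 3 of these the intervals of both jaws left out 0. The difference between the jaws was not tested for any of them. Kdr in endothelial-like cells had a log2 ratio of P1 over E15.5 of 0.11 in the maxillary and -0.28 in the mandibular molar. Vegfd in mesenchyme-like cells had 0.41 and -0.67, and the maxillary value turned to -0.35 without the barcodes shared by the P1 libraries. Angpt1 in mesenchyme-like cells had -0.16 and 0.18, and the maxillary value turned to 0.41 without them. In the other 6 an interval included 0, among them Flt4 in endothelial-like cells (0.64 and -0.16) and Vegfc in endothelial-like cells (-0.05 and 0.25).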

How the results depend on the processing

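The count of members past 2-fold between stages in both jaws in endothelial-like cells was 1 (Angpt1). It was 0 without barcodes scored as doublets or high in mitochondrial RNA, 0 with each cell weighing the same, and 0 with the shared barcodes dropped from both P1 libraries. The receptors stayed highest in endothelial-like cells in 20 of 20 combinations and the ligands outside them in 16 of 20 under the alternatives run. The ligand count is not read as a result, since most genes were highest outside that class. No member passed 2-fold, or 1.5-fold, between the jaws at both stages. Of 88 levels of members, those that moved beyond their interval numbered 6 with a minimum of 2000 UMIs, 41 without doublet-scored and high-mitochondrial barcodes, 20 with classes from each cell's own markers, 53 with each cell weighing the same, 2 with shared barcodes kept in both P1 libraries, 15 with them dropped from both, 12 at a clustering resolution of 2.0 and 12 with the erythroid-like level subtracted. The levels without doublet-marked cells in clusters outside the endothelium, given above, were an alternative chosen after seeing the data. Depth limits the scarce members: in endothelial-like cells Vegfd and Vegfa rest on few UMIs, and intervals cover counting error only. No test and no paired fit was run: the 2 jaws were compared between stages as ratios side by side. Each stage and jaw has 1 library, so none was left out of a group.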
